A study of Mus musculus with 12 samples.

Results

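The nuclear genes of respiratory complex I were followed in the hearts of mice with a myocardial infarction (MI) or a sham operation, each given weekly prednisone, a synthetic glucocorticoid, or vehicle. The members were taken by name: every symbol of the form Nduf followed by a, b, c, s, v or af and a number. This rule found 45 genes, summed from 186 transcripts, among 33641 gene symbols in the table. They are 7 core subunits that hold the flavin, the iron-sulphur clusters and part of the ubiquinone site, 9 accessory subunits of the peripheral arm, 19 accessory subunits of the membrane arm, 8 assembly factors, and the pair Ndufa4 and Ndufa4l2. Ndufa4 keeps its complex I name but is now regarded as a subunit of complex IV, and Ndufa4l2 is its hypoxia-induced paralogue.

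Complex I is the largest enzyme of the respiratory chain. It takes electrons from NADH in its peripheral arm, passes them along iron-sulphur clusters to ubiquinone, and pumps protons through its membrane arm. Mitochondrial DNA encodes part of the membrane arm, the nucleus encodes the rest, and assembly factors put modules together without staying in the finished enzyme. Heart muscle, which makes most of its ATP by respiration, is among the tissues richest in complex I.

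All 12 animals were male wild-type C57BL/6 mice, about 10 weeks old when injections began and about 16 weeks old at the end, and no group carried an engineered allele. The 4 groups of 3 mice were sham with vehicle, sham with prednisone, MI with vehicle and MI with prednisone. Prednisone was given intraperitoneally at 1 mg/kg once a week for 6 weeks, at lights-on, from 2 weeks after surgery. Myocardium was taken 24 hours after the final dose. The region of myocardium sampled was not given in the sources used here. Values are TPM, the length-corrected share of a library that each transcript holds, so the number of reads behind a value is unknown and a rise of one large class of transcripts lowers the share of all others. A member was called when its limma p-value, adjusted by the Benjamini-Hochberg method over 13158 genes, was under 0.05. All 45 members passed the filter of 1 TPM in at least 3 libraries.

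Libraries differed in makeup, in part along the groups. Transcripts of mitochondrial DNA held 21.6% to 42.0% of a library. The nuclear copies of mitochondrial sequence held 15.3% to 20.3% in MI prednisone and 9.32% to 14.6% elsewhere. MI vehicle replicate 3 stood apart with the most genes at 1 TPM or more, 14307, against 11690 to 12772 in the other libraries. Fibroblast markers summed to 925 to 1251 TPM in MI vehicle and to 337 to 585 TPM in the other 3 groups. Macrophage markers summed to 526 to 1215 TPM in MI vehicle and to 229 to 486 TPM elsewhere. Cardiomyocyte markers were abundant in every library but lower in MI vehicle, at 23242 to 29181 TPM, than elsewhere, at 32463 to 38587 TPM, and 4 atrial markers were highest in MI prednisone, at 4335.0 to 6173 TPM. No listed marker of these 4 cell types was at 0 in any library. Each library came from its own mouse, so p-values measure the spread between mice. In bulk tissue, fewer cells of a type and less RNA per cell cannot be told apart, and the part of cell makeup in the results that follow was not tested.

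Promoters were read from the RefSeq table for the assembly GRCm38.p6, which holds 250 bases before and 50 after each start site. It listed 39 of the 45 members among 27025 genes. 5 short motifs of factors known to act on respiratory genes or in glucocorticoid signalling were searched on both strands. The YY1 letters AAGATGGC were found in 8 members, 20.5%, against 3.19% of all listed genes. In all 8 the match lay on the gene's own strand, beginning 11 to 39 bases after the start site, and in 7 of the 8 its ATG is the start codon annotated by GENCODE M21. The windows below are shown because, of the 5 motifs searched, this one was found in the most members. Capitals mark the matched letters.

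Ndufa3, chr7:3617384-3617413, plus strand: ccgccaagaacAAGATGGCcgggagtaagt

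Ndufa9, chr6:126849097-126849126, minus strand: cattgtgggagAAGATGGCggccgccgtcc

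Ndufaf8, chr11:120098933-120098962, plus strand: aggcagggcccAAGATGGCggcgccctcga

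Ndufb8, chr19:44555393-44555422, minus strand: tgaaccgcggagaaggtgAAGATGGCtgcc

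Ndufc1, chr3:51408915-51408944, minus strand: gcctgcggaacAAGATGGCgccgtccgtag

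Ndufs4, chr13:114388045-114388074, minus strand: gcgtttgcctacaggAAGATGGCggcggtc

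Ndufs6, chr13:73328433-73328462, minus strand: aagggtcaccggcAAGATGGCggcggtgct

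Ndufs7, chr10:80249462-80249491, plus strand: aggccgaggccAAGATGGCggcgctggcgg

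The exception in the start codon count was Ndufaf8. The palindrome of NRF1, a factor long tied to nuclear respiratory genes, was found in 3 members, 7.69%, against 1.07% of all genes, and the windows are shown with the match in capitals.

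Ndufa11, chr17:56717692-56717721, plus strand: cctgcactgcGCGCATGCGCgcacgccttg

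Ndufaf4, chr4:24897960-24897989, plus strand: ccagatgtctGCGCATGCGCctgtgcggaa

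Ndufaf5, chr2:140170652-140170681, plus strand: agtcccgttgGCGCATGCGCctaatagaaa

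The ETS letters CCGGAAG were in 6 members, 15.4% against 9.93% of all genes, and the estrogen-related receptor letters AAGGTCA in 3, 7.69% against 5.38%. No member window held the glucocorticoid receptor motif, which 0.537% of all windows held. The 120 bases before the start site are given for the 3 members that rose most with prednisone after MI, described below, and they held none of the 5 motifs.

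Ndufa3, chr7:3617253-3617372, plus strand: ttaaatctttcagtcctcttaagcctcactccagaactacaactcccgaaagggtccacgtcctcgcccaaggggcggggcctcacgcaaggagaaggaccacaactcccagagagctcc

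Ndufa5, chr6:24527691-24527810, minus strand: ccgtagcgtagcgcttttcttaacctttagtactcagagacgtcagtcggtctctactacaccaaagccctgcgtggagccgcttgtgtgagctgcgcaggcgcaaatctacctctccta

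Ndufa4, chr6:11907451-11907570, minus strand: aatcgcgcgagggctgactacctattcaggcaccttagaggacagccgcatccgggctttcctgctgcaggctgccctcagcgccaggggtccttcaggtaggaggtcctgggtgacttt

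A match is a description of letters, and nothing about the factors' binding was measured.

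Complex I genes were among the abundant nuclear transcripts of the heart. As means over the 12 libraries, on the length-corrected TPM scale, core subunits had a median of 371 TPM and a lowest mean of 215 TPM, that of Ndufs8. On the same scale peripheral-arm accessory subunits lay between 112 TPM for Ndufs4 and 769 TPM for Ndufa5, and membrane-arm accessory subunits between 64.1 TPM for Ndufb4 and 978 TPM for Ndufb9. The assembly factors ranged lower, from 9.87 TPM for Ndufaf7 to 51.1 TPM for Ndufaf8. Ndufa4 was the most abundant member, at 1579 TPM. Many of these genes have processed pseudogenes whose sequence is close to their own, and how reads were shared between them is not known, so levels carry that uncertainty.

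The 45 members together summed to 16052 ± 436 TPM in sham vehicle, 16803 ± 1212 in sham prednisone, 13968 ± 511 in MI vehicle and 19372 ± 2478 in MI prednisone (SD, n = 3 each). Every MI vehicle library was below every sham vehicle library. The 3 MI prednisone libraries were above every MI vehicle library, but spread widely, from 17050 to 21981 TPM. The lowest of them lay within the range of the sham prednisone group, whose highest library reached 18138.0 TPM.

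**Figure D1:**
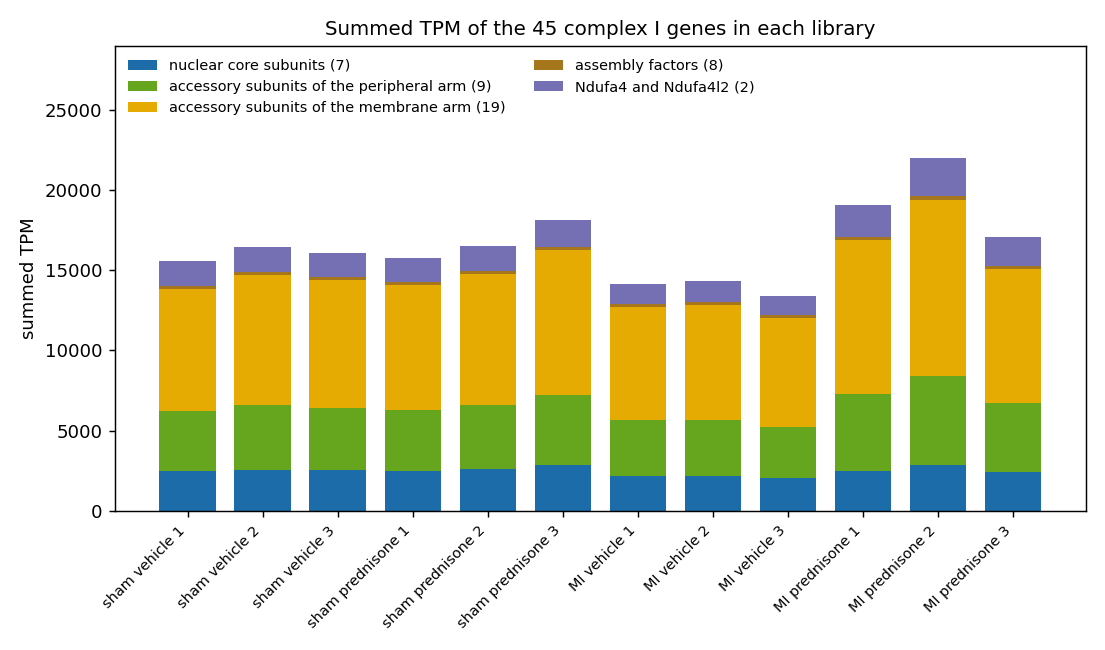
Summed TPM of the 45 complex I genes in each of the 12 libraries, stacked by the role of the gene, with the number of genes of each role in brackets. The 3 MI vehicle libraries hold the shortest bars, at 13388 to 14352 TPM, and MI prednisone replicate 2 the tallest, at 21981 TPM.

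The first comparison set MI against sham under vehicle and asked how complex I genes stood in the infarcted heart. Most members were lower by a small and similar amount. Of the 45 changes 40 were negative, with a median of -0.16 on the log2(TPM + 1) scale. The median over all genes tested was 0.39. With 1 library left out at a time, the all-gene median ran from 0.19 without MI vehicle replicate 3 to 0.51 without MI vehicle replicate 1. By limma, 1 member was called lower, Ndufv2, where 0.904% of all genes were, and 1 higher, Ndufa4l2, where 15.1% were. A further count needs no model: in 30 of 45 members every MI vehicle library was below every sham vehicle library, against 4.17% of all genes.

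Ndufv2, a core subunit that carries an iron-sulphur cluster beside the flavin, stood at 454, 438 and 451 TPM in sham vehicle and at 367, 372 and 355 TPM in MI vehicle. The groups did not overlap, and the change was -0.29 ± 0.08 (SE, limma adjusted p = 0.0392). Ndufa4l2 went the other way, with 16.4, 15.2 and 18.8 TPM in sham vehicle and 23.2, 26.4 and 21.2 TPM in MI vehicle, a change of 0.46 ± 0.13 (limma adjusted p = 0.0364). It was the single member for which all MI vehicle libraries exceeded all sham vehicle libraries.

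The 7 core subunits were lower in MI vehicle in every pair of libraries, without overlap, but apart from Ndufv2 none passed the test. Ndufs7, which carries the last iron-sulphur cluster before ubiquinone, had the largest of these differences, from 399, 431 and 403 TPM in sham vehicle to 345, 334 and 301 TPM in MI vehicle, a value of -0.33 ± 0.11 (limma adjusted p = 0.0610). Ndufv1 stood at 378, 391 and 381 TPM in sham vehicle against 339, 326 and 303 TPM, and Ndufs1 at 241, 259 and 252 TPM against 220.4, 208 and 188 TPM. Smaller gaps were seen in Ndufs3, with 278, 299.9 and 287 TPM against 259, 254 and 244 TPM, and in Ndufs8, with 203, 217 and 218 TPM against 186, 190.1 and 195 TPM. The 9 peripheral-arm and 18 of the 19 membrane-arm accessory subunits also had negative values. The members with positive values were Ndufa4l2, Ndufb3 at 0.04, and the assembly factors Ndufaf2 at 0.22, Ndufaf1 at 0.05 and Ndufaf7 at 0.05. The 8 assembly factors had a median of -0.09.

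How many members were called here depended on the scale and on single libraries. Median-ratio rescaling sets the middle gene of each library equal. It moved the median of all genes from 0.39 to 0.02. With it 17 members were called lower and none higher, where 3.72% of all genes were called lower. The rescaling divided MI vehicle replicate 3 by 1.64 and the other libraries by 0.866 to 1.13. After it, MI vehicle replicate 3 held the lowest value of all 12 libraries in all 45 members. A correction for transcript length gave 7 lower, where 3.16% of all genes were. Under both, Ndufa4l2 was no longer called. Left out one at a time, MI vehicle replicate 1 gave 5 calls, MI prednisone replicate 3 gave 4 and MI prednisone replicate 2 gave 3. MI vehicle replicate 3, sham prednisone replicate 3 and MI prednisone replicate 1 gave 1 each. MI vehicle replicate 2, sham prednisone replicates 1 and 2 and each sham vehicle library gave 0. Calls over all 13158 genes moved as well, from 1981 higher and 119 lower with all libraries. Without MI vehicle replicate 1 they were 5422 higher and 209 lower, and without sham vehicle replicate 1 they were 160 and 8. Leaving out a prednisone library changed only the pooled spread, not the groups compared. The lower cardiomyocyte sum and higher fibroblast and macrophage sums of MI vehicle, given above, went with this result, and their part in it was not tested.

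Prednisone was then compared with vehicle in sham hearts. No member was called by limma, at a background of 0.0532% of genes higher and 0.0608% lower, and 1 member, Ndufaf4 at 0.23 ± 0.10, had an unadjusted p under 0.05. Of the 45 values 40 were positive, but the median of 0.07 equalled that of all genes, and with median-ratio rescaling 30 of 45 were negative. In 5 members every prednisone library was above every vehicle library, against 15.6% of all genes. Core subunits stayed near their vehicle levels: Ndufv1 stood at 386, 397 and 447 TPM, Ndufv2 at 427, 442 and 474, Ndufs3 at 286, 289 and 324, Ndufs7 at 395, 413 and 466, and Ndufs8 at 209, 226 and 243 TPM in sham prednisone. In each of these 5 replicate 3 was the highest. Ndufa4 stood at 1453, 1546 and 1636 TPM against 1535, 1560.1 and 1499 TPM with vehicle, and Ndufa4l2 at 17.8, 16.5 and 20.5 TPM, both overlapping vehicle. Sham prednisone replicate 3 held the highest value of all 12 libraries for 8 members.

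In infarcted hearts prednisone went with higher complex I transcripts across every role. By limma 30 of 45 members were called higher, where 2.50% of all genes were, and none lower, where 34.9% of all genes were. The members' median was 0.40, that of all genes -0.41. With 1 library left out at a time, that of all genes ran from -0.51 without MI vehicle replicate 1 to -0.22 without MI vehicle replicate 3. In 34 members every MI prednisone library lay above every MI vehicle library, against 3.59% of all genes. The exact permutation test of 3 against 3 libraries cannot give a p below 0.1 for any single gene, so the calls rest on the spread that limma pools over groups and genes. When limma was given only the 6 libraries compared, the 3 members called were Ndufa3, Ndufa4 and Ndufa5.

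**Figure D2:**
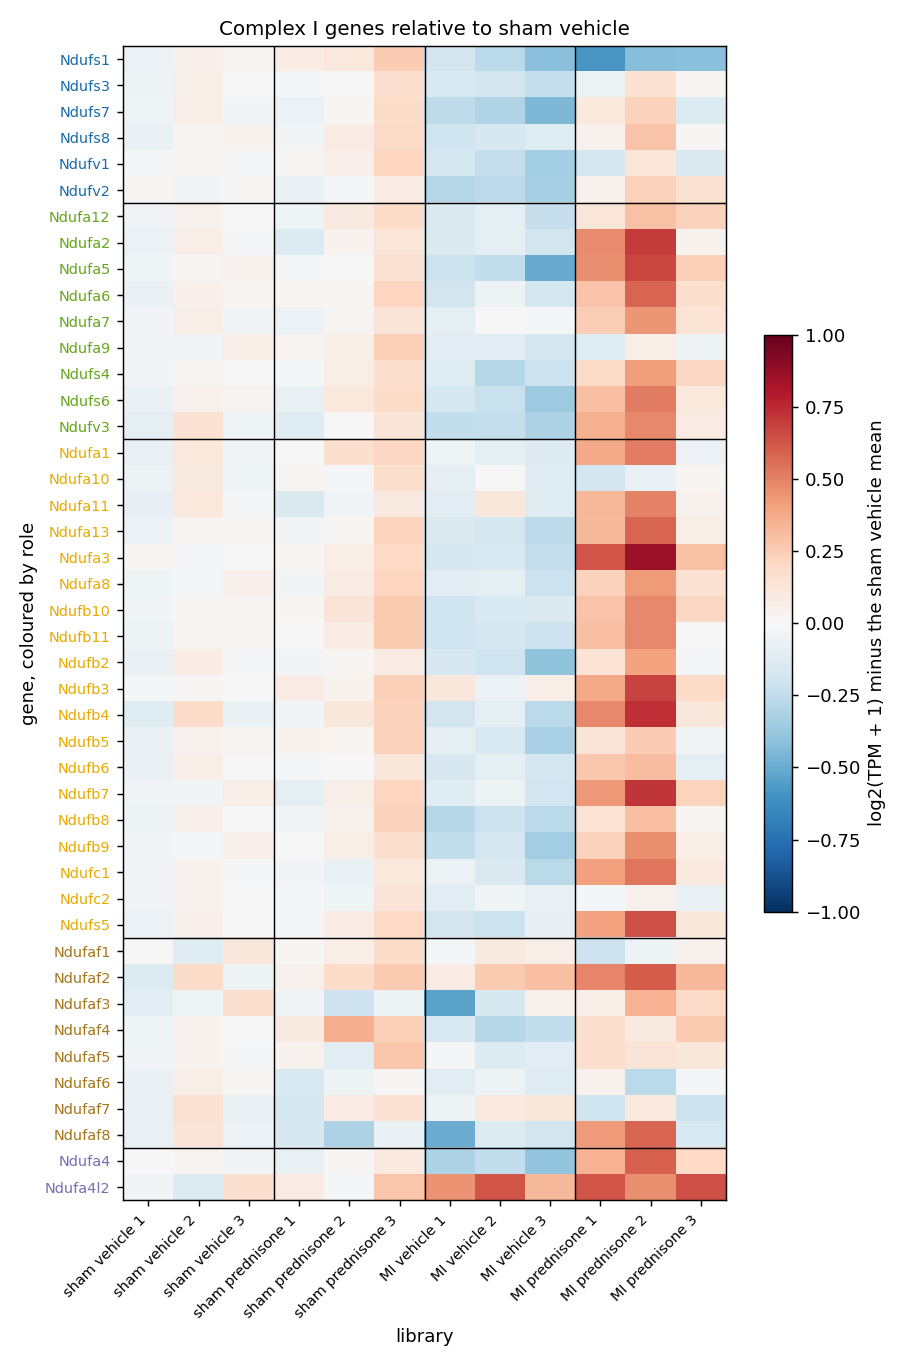
Difference of 44 of the 45 genes (rows, coloured by role) from its sham vehicle mean in each of the 12 libraries (columns), as log2(TPM + 1). MI vehicle columns are mostly below 0, with a median per library over the 45 genes of -0.21 to -0.15, and MI prednisone columns mostly above 0, with medians of 0.07 to 0.42.

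The accessory subunits had the largest share of calls. Of the peripheral-arm accessory subunits 8 of 9 rose, with a median over the 9 of 0.48. Ndufa5 rose most, from 628, 615 and 513 TPM in MI vehicle to 1005, 1159 and 857 TPM in MI prednisone, a change of 0.78 ± 0.12 (limma adjusted p = 0.0015). Every treated library exceeded every untreated one, and also the sham libraries, which lay between 707 and 811 TPM. The most abundant Ndufa5 transcript, of 453 bases, is annotated as a processed transcript and not as protein-coding. It held 70.1%, 68.5% and 67.4% of the gene in MI vehicle and 72.4%, 70.9% and 71.9% in MI prednisone. Ndufv3, Ndufs6 and Ndufs4 rose by 0.57, 0.56 and 0.48. Ndufa9, which sits near the ubiquinone site, was the exception, at 0.10 ± 0.09.

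Of the membrane-arm accessory subunits 15 of 19 rose, with a median of 0.43. Ndufa3 had the largest change of all members. It stood at 520.2, 526 and 496 TPM in MI vehicle and at 905, 1065 and 719.9 TPM in MI prednisone, a change of 0.78 ± 0.13 (limma adjusted p = 0.0017). The groups lay far apart, and MI prednisone was also above all sham libraries, which ran from 579.7 to 672 TPM. Ndufb4 rose by 0.63, Ndufb7 by 0.58, Ndufs5 by 0.55 and Ndufa13 by 0.52. The 4 that were not called were Ndufa1 at 0.36, Ndufa11 at 0.33, Ndufc2 at 0.06 and Ndufa10 at -0.00.

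Of the 7 core subunits 3 rose, with a median of 0.27. Ndufv2 went from 367, 372 and 355 TPM to 461, 525 and 498 TPM, a change of 0.44 ± 0.08 (limma adjusted p = 0.0032) that took it above all sham vehicle libraries. Ndufs7 went from 345, 334 and 301 TPM to 443, 482 and 373 TPM, a change of 0.40 ± 0.11 (limma adjusted p = 0.0180). Ndufs8, which holds clusters on the way to ubiquinone, went from 186, 190.1 and 195 TPM to 219, 259 and 215 TPM, a change of 0.27 ± 0.10 (limma adjusted p = 0.0448). The treated libraries of all 3 were clear of the untreated ones. They overlapped sham prednisone in Ndufv2, where replicate 1 lay within its range, and both sham groups in Ndufs7 and Ndufs8. In Ndufs7 and Ndufs8 replicate 2 was above every sham library, and in Ndufs7 replicate 3 was below every sham library.

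The other core subunits did not pass the test. Ndufs3, near the ubiquinone site, stood at 259, 254 and 244 TPM in MI vehicle against 278, 319.5 and 292 TPM with prednisone, a value of 0.23 ± 0.09. Ndufv1, which binds NADH and the flavin, stood at 339, 326 and 303 TPM against 341, 416 and 348 TPM, a value of 0.19 ± 0.10. In both the groups still did not overlap.

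Ndufs1, the largest core subunit, which carries several of the clusters, had its lowest mean in treated infarcted hearts. With prednisone after MI its TPM was 167, 187 and 188, and without it 220.4, 208 and 188. Sham hearts given prednisone had 264, 269 and 299 TPM. The MI groups overlapped at their edge, MI prednisone replicate 3 being level with MI vehicle replicate 3, and sham prednisone lay above all sham vehicle libraries. Neither value passed the test, at -0.18 ± 0.09 after MI and 0.14 ± 0.09 after sham. Its share of the members' summed TPM was 0.942% ± 0.138 in MI prednisone, against 1.47% ± 0.0792 in MI vehicle and 1.56% ± 0.0171 in sham vehicle (SD, n = 3 each). The ratio of Ndufa3 to Ndufs1 lay between 2.23 and 2.64 in the other 9 libraries and was 5.42, 5.71 and 3.84 in MI prednisone. These members had the highest and the lowest value of this comparison, so the choice of the pair favours a separation. They also differ in length, at 467 and 2478 bases, and length is treated below. The sign of the Ndufs1 change after MI turned under other scales, to 0.27 with median-ratio rescaling and 0.26 with the length correction, neither called.

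Assembly factors changed less evenly. Ndufaf8, a partner of Ndufaf5, rose by 0.56 ± 0.18, from 36.2, 46.8 and 45.3 TPM to 69.7, 77.5 and 46.4 TPM, although replicate 3 of MI prednisone lay within the MI vehicle range. Ndufaf3 and Ndufaf4, which work together on the ubiquinone module, rose by 0.42 ± 0.15 and 0.40 ± 0.10. The 5 others were not called: Ndufaf2 at 0.25, Ndufaf5 at 0.22, Ndufaf6 at 0.01, Ndufaf1 at -0.12 and Ndufaf7 at -0.15. Ndufaf3 passed narrowly as a gene (limma adjusted p = 0.0494), and its most abundant transcript, of 1487 bases, was at -0.02 (limma adjusted p = 0.930). A 478-base form of Ndufaf3 rose by 1.46. The most abundant transcript of Ndufaf4, at 0.35, was not called either (limma adjusted p = 0.0831).

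Ndufa4 rose from 1235, 1290.1 and 1163 TPM to 1948, 2322 and 1756 TPM, a change of 0.70 ± 0.11 (limma adjusted p = 0.0015). All 3 treated libraries exceeded every other library, the sham libraries reaching 1636 TPM. Ndufa4l2 stood at 26.4, 23.4 and 26.7 TPM in MI prednisone, overlapping MI vehicle, a value of 0.11 ± 0.13 that did not pass the test.

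**Figure D3:**
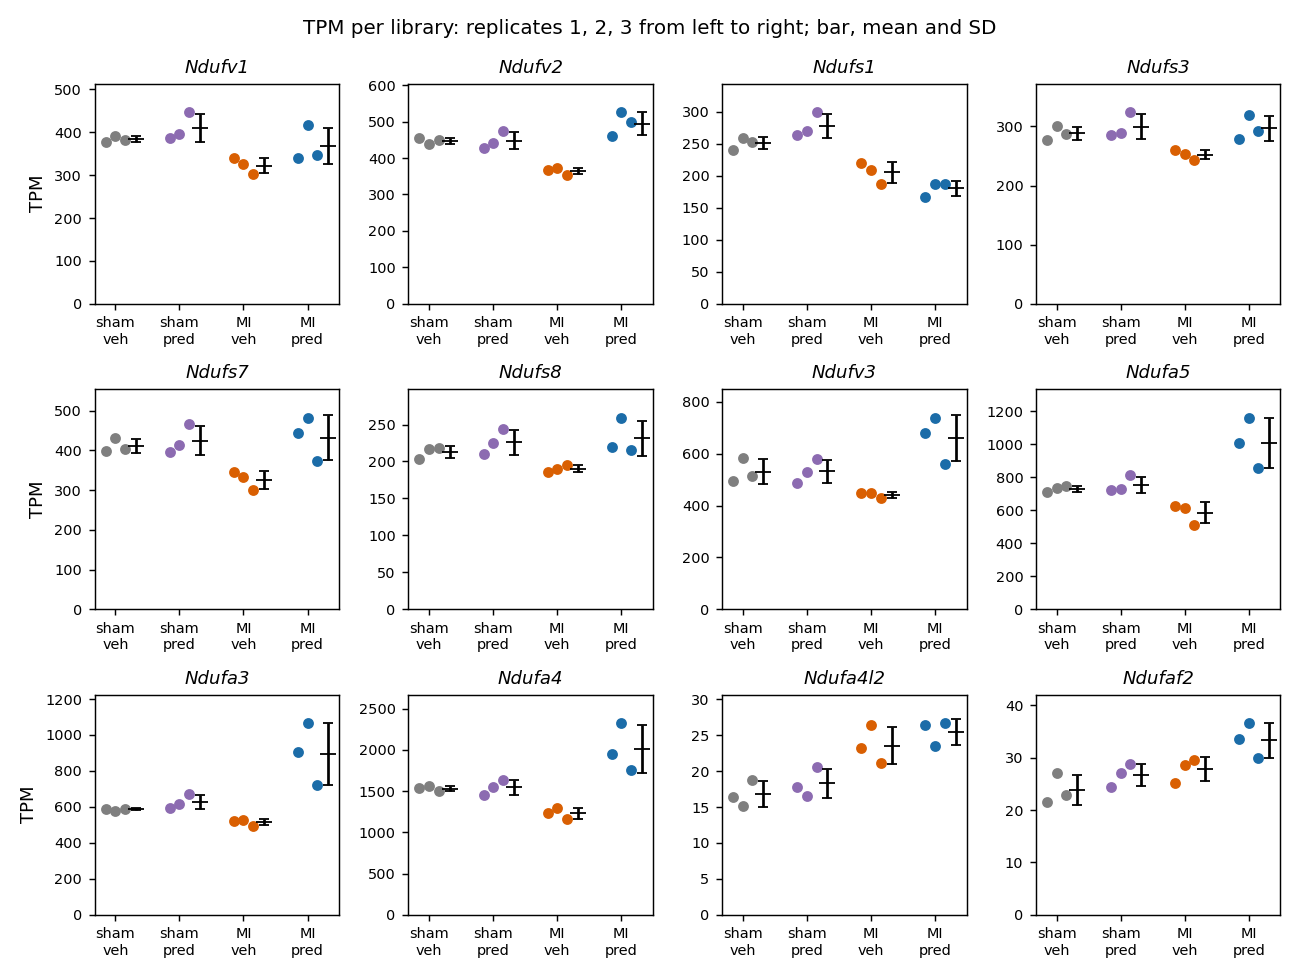
TPM per library of 6 nuclear core subunits, 2 peripheral-arm accessory subunits (Ndufv3, Ndufa5), Ndufa3 of the membrane arm, Ndufa4, Ndufa4l2 and the assembly factor Ndufaf2, with replicates as points and mean ± SD as the bar beside them. In Ndufa3, Ndufa5 and Ndufa4 the 3 MI prednisone points lie above all 9 others, and in Ndufs1 their mean, 180.5 TPM, is the lowest of the 4 groups.

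Replicates of MI prednisone differed more than those of the other groups. The median coefficient of variation of the members was 12.8% there, against 3.90% in sham vehicle, 7.89% in sham prednisone and 4.99% in MI vehicle. Replicate 2 held the highest value of all 12 libraries in 33 of 45 members, and replicate 3 the lowest value of its group in 32. Without any single library the count of members called higher in this comparison ran from 21 to 32. Over all 13158 genes, 211 were called higher without MI prednisone replicate 1, which gave 21, and 402 without replicate 3, which gave 32.

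Whether the response to prednisone differed between infarcted and sham hearts was tested directly, as the change after MI minus the change after sham. By limma 5 members were called higher, where 0.540% of all genes were, and none lower, where 20.7% were. They were Ndufa5 at 0.73 ± 0.17 (limma adjusted p = 0.0166), Ndufa3 at 0.69 ± 0.18 (limma adjusted p = 0.0225), Ndufa4 at 0.69 ± 0.15 (limma adjusted p = 0.0141), Ndufv3 at 0.57 ± 0.16 (limma adjusted p = 0.0336) and Ndufv2 at 0.44 ± 0.12 (limma adjusted p = 0.0258). Across members 39 of 45 differences were positive, with a median of 0.33 against -0.48 for all genes. With 1 library left out at a time, the all-gene median ran from -0.59 without MI vehicle replicate 1 to -0.29 without MI vehicle replicate 3. The 6 negative ones were Ndufs1 at -0.33, Ndufaf1 at -0.21, Ndufaf7 at -0.17, Ndufa10 at -0.06, Ndufa9 at -0.01 and Ndufa4l2 at -0.00.

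That count was not stable across settings. It was 28 with median-ratio rescaling, where 5.12% of all genes were called higher, and 0 with the length correction. Without MI prednisone replicate 3 it was 21, where 152 of 13158 genes were called higher and 2513 lower. Without MI vehicle replicate 1 it was 8, where 92 genes were called higher and 4428 lower. It fell to 3 without MI prednisone replicate 1 or 2, and to 2 without sham vehicle replicate 1 or 3 or sham prednisone replicate 1 or 2.

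**Figure D4:**
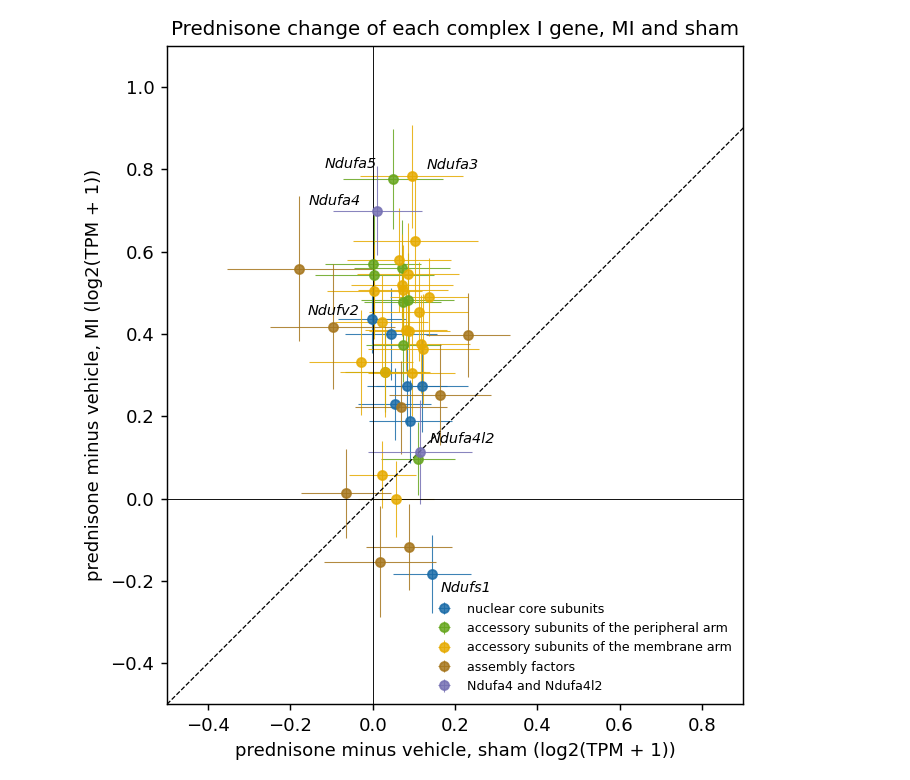
Prednisone minus vehicle in MI (vertical) against prednisone minus vehicle in sham (horizontal) for each of the 45 genes, both as log2(TPM + 1), with SE bars and the line of equal change dashed. In 39 genes the MI value exceeds the sham value, and most sham values lie close to 0, with a median of 0.07.

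Under prednisone, MI against sham gave 4 members called higher, where 2.73% of all genes were, and 1 lower, where 14.1% were. Those higher were Ndufa3 at 0.50 ± 0.13 (limma adjusted p = 0.0205), Ndufa4l2 at 0.46 ± 0.13 (limma adjusted p = 0.0305), Ndufa5 at 0.41 ± 0.12 (limma adjusted p = 0.0417) and Ndufa4 at 0.37 ± 0.11 (limma adjusted p = 0.0388). Ndufs1 fell by 0.62 on the log2 scale, with an SE of 0.09 (limma adjusted p = 0.0023), with every MI prednisone library, 188 TPM at most, below every sham prednisone library, 264 TPM at least. In 9 members the MI libraries were all higher, against 12.9% of all genes.

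The median of the members in this contrast was 0.18, that of all genes -0.06, and with the length correction it was -0.09 with no member called. With median-ratio rescaling 4 members were called higher, where 11.7% of all genes were, and none lower. Of the 5 above, Ndufa3 alone stayed called, Ndufs1 moved to -0.51 (limma adjusted p = 0.0638), and the others called were the assembly factors Ndufaf2, Ndufaf3 and Ndufaf8. Without MI prednisone replicate 3 the count of calls was 16, where 700 of 13158 genes were called higher and 1930 lower. It was 3 without any one sham vehicle library or sham prednisone replicate 3, and 1 without MI prednisone replicate 1 or 2 or sham prednisone replicate 1 or 2.

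Treated infarcted hearts were last set against untreated sham hearts. By limma 8 members were called higher, where 3.59% of all genes were, and Ndufs1 was called lower, at -0.47 ± 0.09 (limma adjusted p = 0.0108), where 8.41% were. The 3 largest rises were Ndufa3 at 0.59 ± 0.13 (limma adjusted p = 0.0131), Ndufa4l2 at 0.58 ± 0.13 (limma adjusted p = 0.0158) and Ndufaf2 at 0.47 ± 0.12 (limma adjusted p = 0.0314). Ndufaf2, an assembly factor related to the subunit Ndufa12, stood at 21.5, 27.1 and 22.9 TPM in sham vehicle and 33.6, 36.5 and 29.9 TPM in MI prednisone, with no overlap. The other 5 were Ndufb7, Ndufa5, Ndufb3, Ndufa4 and Ndufb10, from 0.46 down to 0.33. In 21 members the treated MI libraries were all higher, against 17.0% of all genes.

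The members' median was 0.26, against -0.00 for all genes. The count of calls was 25 without MI prednisone replicate 3 and 0 without replicate 1, 3 without replicate 2 and 0 with the length correction. Over all 13158 genes, 872 were called higher and 1414 lower without replicate 3, against 106 and 378 without replicate 1. With median-ratio rescaling 2 were called higher, where 10.4% of all genes were, and Ndufs1, at -0.46, was no longer called. On the TPM scale the count was 1 or 2 without any one sham vehicle library, 5 without sham prednisone replicate 1 or MI vehicle replicate 2, and 3 without sham prednisone replicate 2. The comparisons above share groups, so they do not repeat one another independently.

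The size of the change after MI went with transcript length. The members are short, with a median of 729 bases against 2321 for all genes tested. With prednisone after MI the 15 members under 600 bases had a median change of 0.54, the 16 from 600 to 1000 bases 0.39, and the 14 of 1000 bases or more 0.23. All genes of the same ranges had medians of -0.11, 0.01 and -0.44. Across the 45 members the Spearman correlation of change with length was -0.56, as a description over genes that share the same 12 libraries; it was -0.40 over all genes.

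The 4 members with negative values, Ndufs1, Ndufaf7, Ndufa10 and Ndufaf1, were all over 1000 bases, and Ndufs1 is the longest member, at 2478 bases. In single libraries the correlation of a member's deviation from sham vehicle with its length was -0.63 and -0.62 in MI prednisone replicates 1 and 2, -0.21 in replicate 3, and between -0.26 and 0.39 elsewhere. Centring each library on the median deviation of its genes, without a correction for length, gave all 45 members a positive value, with a median of 0.79, and 39 were called higher, where 13.8% of all genes were. Removing the trend with length as well left all 45 positive but lowered the median to 0.56 and the calls to 16, where 8.76% of all genes were called higher. With median-ratio rescaling 39 were called higher, where 14.6% of all genes were, with a median of 0.86. On that scale MI vehicle replicate 3 held the lowest value of all 12 libraries in all 45 members. The cause of the length trend was not tested.

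**Figure D5:**
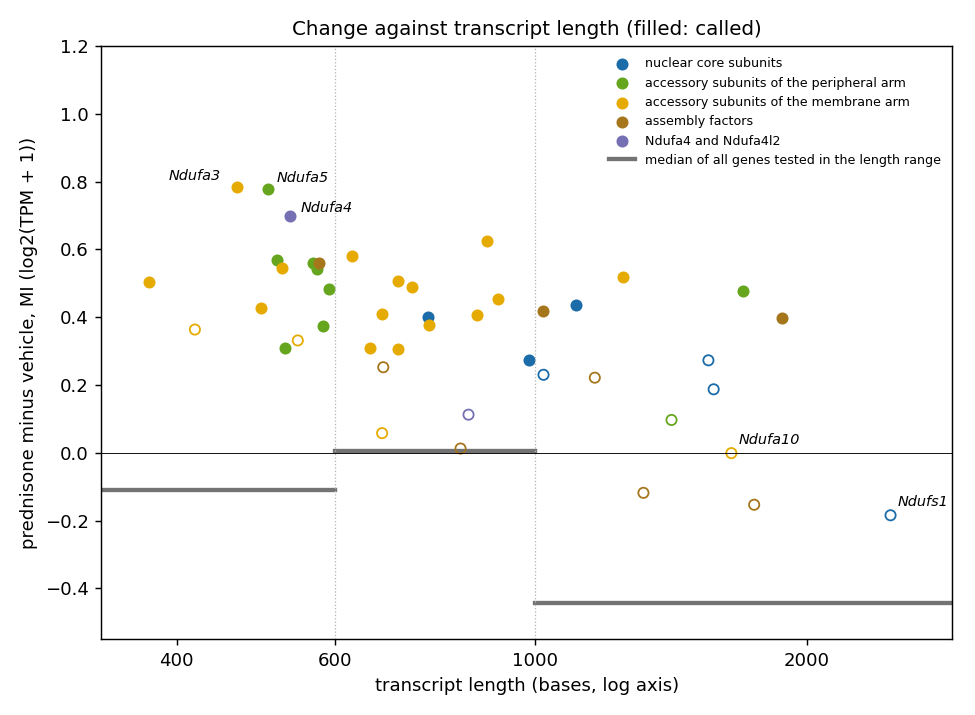
Change with prednisone after MI on the log2(TPM + 1) scale against transcript length in bases on a log axis, for the 45 members coloured by role (filled, called; open, not called), with the median of all genes tested in each length range as grey bars. Members lie above the grey bar of their range throughout, and the 4 negative values, among them Ndufs1 at 2478 bases, belong to genes over 1000 bases.

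Transcripts of the same gene did not all change alike. In the 9 libraries outside MI prednisone the most abundant transcripts of the 45 members held 84.5% to 86.4% of their summed TPM, and in MI prednisone 82.0%, 81.2% and 83.2%. Transcripts annotated as other than protein-coding held 7.27% to 7.88% in the 9 libraries and 10.9%, 11.4% and 8.89% in MI prednisone. Of the 32 members with more than 1 transcript, the share of the most abundant one was lower in all 3 MI prednisone libraries than in the other 9 for 7, among them Ndufa10, Ndufa4, Ndufa9, Ndufb4, Ndufc1 and Ndufv1, and higher for 2, Ndufb5 and Ndufv2. Over the 10455 tested genes with more than 1 transcript the share was lower in this way for 10.7% and higher for 10.1%.

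A large shift was seen in Ndufv1. Its main coding transcript of 1661 bases stood at 313, 297 and 275 TPM in MI vehicle and 216, 238 and 249 TPM in MI prednisone, a change of -0.33 ± 0.10 (limma adjusted p = 0.0267 over 27769 transcripts) under a gene total that did not fall. A coding transcript of 1438 bases went from 3.24, 3.66 and 2.01 TPM to 101, 125 and 71.9 TPM, and in the 6 sham libraries it was between 3.55 and 7.90 TPM. Its change was 4.65 ± 0.27 (limma adjusted p = 4.17e-06). This transcript, and the minor one of Ndufs1 that follows, were singled out after their values were seen.

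The main transcripts of Ndufa4 gave different values. The 452-base form went from 329, 525 and 443 TPM to 975, 1242 and 882 TPM (1.27 ± 0.18, limma adjusted p = 0.000651), while the 610-base form, 829.8, 718 and 652 TPM in MI vehicle and 884, 985 and 751 TPM in MI prednisone, did not pass the test. Ndufa10 had a value of -0.00 as a gene, but its 2020-base coding transcript fell, by 0.40 on the log2 scale, and a 1514-base transcript annotated for nonsense-mediated decay rose by 1.45. Of Ndufs1 the 2590-base transcript fell by 1.61, from 70.3, 64.3 and 62.9 TPM to 15.1, 15.8 and 37.4 TPM, and the 2661-base one was not called. An 826-base transcript with a retained intron, at 0.471 TPM or less in the 9 other libraries, stood at 50.8, 71.3 and 6.89 TPM in MI prednisone.

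In 11 members with transcripts of different length that each held at least 20% of the gene, the shorter changed more upward in 8. The exceptions were Ndufaf6, Ndufb5 and Ndufs1. In Ndufc1 the forms compared were those of 311 bases, at 1.00, and 500 bases, at 0.59. Its most abundant form, of 315 bases, changed by 0.29, less than the longer 500-base one. The same count over all genes is not given here. In Ndufb5 the 625-base transcript rose by 0.68 and the 574-base one fell by 0.62, so a pair of nearly equal length moved in opposite directions. How the quantification split reads between overlapping transcripts cannot be checked without the reads.

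The 7 mitochondrially encoded subunits, which share the enzyme with the members gave a mixed result. With prednisone after MI 1 of 7 rose, mt-Nd3, by 0.70, and 2 fell, mt-Nd4l by 1.19 and mt-Nd5 by 1.35. In this comparison 2.50% of all genes were called higher and 34.9% lower. mt-Nd5, a proton-pumping subunit at the tip of the membrane arm, stood at 9839, 10283 and 6689 TPM in MI vehicle and at 2499.5, 3001 and 5475 TPM in MI prednisone. Replicate 3 of MI prednisone was again nearest to the other groups. These transcripts share sequence with the nuclear copies, whose summed share was highest in MI prednisone, and the part of that in the values was not tested.

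Of 9 further complex I genes outside the naming rule that the table held, 1 rose, Ndufab1, the acyl carrier protein of both arms, by 0.41, and none fell. For this and the counts that follow, 2.50% of all genes were called higher and 34.9% lower with prednisone after MI. Other respiratory complexes were compared from lists of their nuclear subunits. With prednisone after MI 10 of 13 complex IV subunits rose and none fell (median 0.50), 13 of 15 ATP synthase subunits rose and none fell (median 0.49), 5 of 9 complex III subunits rose and 1, Uqcrc2, fell (median 0.42), and of the 4 complex II subunits none rose and 1, Sdha, fell (median -0.00). The median lengths of these lists were 572, 717, 546 and 1279 bases in that order. The complex I median of 0.40 at 729 bases lay among these values.

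Regulators of nuclear respiratory genes did not rise. Of 10 listed, 6 fell with prednisone after MI, where 34.9% of all genes did: Ppara by 1.53, Gabpa by 1.25, Esrrg by 1.14, Yy1 by 0.99, Ppargc1a, the coactivator best known for driving mitochondrial genes, by 0.98, and Ppargc1b by 0.89. Esrra, Nrf1, Tfam and Perm1 were not called. These transcripts are long, with a median of 3351 bases, a range in which all genes had a median of -0.44. Of the 8 members with the YY1 letters 7 were among the 30 of 45 that rose with prednisone after MI, Ndufa9 being the exception. So were 3 of the 3 members with the estrogen-related receptor letters, 4 of the 6 with the ETS letters and 1 of the 3 with the NRF1 palindrome. In this comparison 2.50% of all genes were called higher. A link between the letters and the change was not tested.

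Cell markers also changed in this comparison, in which 2.50% of all genes were called higher and 34.9% lower. Of the cardiomyocyte markers 3 of 9 rose and none fell, of the atrial markers 3 of 4 rose, 6 of 7 fibroblast markers fell and 5 of 7 macrophage markers fell. The MI prednisone sums for cardiomyocyte markers, 33276 to 35982 TPM, overlapped the range of sham vehicle, 32463 to 34310 TPM, and lay within that of both sham groups together. The members' sum, 17050 to 21981 TPM, was above all sham vehicle libraries, and its lowest library lay within the range of both sham groups together. The part of cell makeup in the members' rise was not tested.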

How the data were processed

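The deposited table holds TPM for 105129 transcript rows, made by the authors; the submitters' processing notes name Trimmomatic, HISAT2, kallisto and the mouse build mm10, without versions or roles, and the annotation release is not given in the sources used here. Every column sums to 1000000 TPM, so sequencing depth is unknown and no count test or interval was possible. Libraries were stranded mRNA preparations, per the labels' protocols. Transcripts were summed by symbol, and log2(TPM + 1) was tested with limma 3.58.1 in R 4.3.3 (trend, 1 mean per group, all 12 libraries) over 13158 genes with 1 TPM in at least 3 libraries, for 6 comparisons, with Benjamini-Hochberg adjustment. Transcript tests covered 27769 transcripts. Lengths came from GENCODE M21 (99.7% of tested genes), and the length correction was a loess of span 0.5. Scripts were tested on simulated data.

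The members and lists were chosen with earlier results of these data known. Values in every library were given for the core subunits, Ndufa4, Ndufa4l2 and the 3 largest called rises and falls of each comparison among members of at least 5 TPM, and for transcripts holding at least 20% of a gene. 1 member is not reported by name here. Members whose sign differed from most were also named. Alternatives were a pseudocount of 0.1, no filter, median-ratio rescaling, a length correction, a replicate block and leaving out each library.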

Additional observations from a re-analysis of the deposited data

Results flagged for a closer look

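In 5 members the response to prednisone differed between infarcted and sham hearts by limma's test of the difference: Ndufa5 by 0.73, Ndufa3 by 0.69, Ndufa4 by 0.69, Ndufv3 by 0.57 and Ndufv2 by 0.44 on the log2(TPM + 1) scale, higher after MI in each. None of the 5 was called after the length correction.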

How the results depend on the processing

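TPM keeps no depth, so low members such as the assembly factors have an unknown counting error, and 3 mice a group leave the calls to the pooled spread. The cause of each change below was not tested, except that smaller sets of libraries give less precision. MI against sham under vehicle, with 2 members called, gave 17 with median-ratio rescaling, 18 with mitochondrial, nuclear-copy and globin transcripts removed, 15 with centring of genes with a length, 7 with the length correction, 1 without the filter or without limma's trend, and 0 with the groups compared alone, the most abundant transcript, or the replicate block with or without the length correction. MI against sham under prednisone, with 5, gave 4 with rescaling, of which 1 was among the 5, 5 with centring, of which 2 were, 9 with the most abundant transcript, 3 without the filter, without the trend or with the replicate block, 2 with the groups alone or those transcripts removed, and 0 with the length correction, with or without the block. Prednisone after MI, with 30, gave 16 with the length correction, 7 with that and the replicate block (26 with the block alone) and 3 with the groups alone. It gave 25 with the most abundant transcript, of which 23 were among the 30. Ndufa10 and Ndufv1 were called lower there, and Ndufa4, Ndufaf3, Ndufaf4, Ndufb4, Ndufb6, Ndufc1 and Ndufs8 lost their call. The difference between MI and sham responses, with 5, gave 28 with rescaling, 23 with centring, 17 with those transcripts removed, 3 without the trend, and 0 with the length correction, with or without the block. MI prednisone against sham vehicle, with 9, gave 4 without the filter, without the trend, with the block or with the groups alone, 3 with those transcripts removed, 2 with rescaling or centring, and 0 with the length correction, with or without the block. Leaving out 1 library gave 0 to 5, 1 to 16, 21 to 32, 2 to 21 and 0 to 25 in that order. Prednisone after sham gave 0 throughout. These counts hold both directions, and calls over all genes changed too. For MI against sham under prednisone the 9 stood beside 6204 of 27769 transcripts called. For prednisone after MI the 25 stood beside 9169 of 27769. Its 3 with the groups alone were all higher, where 31 of 13158 genes were. For MI against sham under vehicle the 18 were all lower, where 272 of 14690 genes were with mitochondrial, nuclear-copy and globin transcripts removed.

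The log2 ratio of the members' summed TPM moved to -0.61 with rescaling and -0.42 with those transcripts removed for MI against sham under vehicle, and to 0.89 with rescaling for prednisone after MI. For prednisone after sham it turned to -0.028 and -0.013 under those settings. With the most abundant transcript alone, prednisone after MI gave -0.33 for Ndufv1, and MI prednisone against sham vehicle gave -0.015 for Ndufa4. Ndufs1 after MI turned to 0.27 with rescaling, 0.26 with the length correction, with or without the block, and 0.21 with centring. Ndufa3 kept its call for prednisone after MI in all 23 alternatives, Ndufa5 in 22, Ndufa4 and Ndufv2 in 21, and Ndufs8 lost it in 16. Replicate numbers belong to different mice, so the numbers do not pair the samples. Deviations of same-numbered libraries from their group means had r from -0.58 to 0.28. With 3 libraries a group, 1 outlying library weighs on these values, so they cannot tell whether same-numbered libraries shared a batch.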
